A study of Mus musculus with 20 samples.

Results

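The 9 genes of retinoic acid synthesis and response followed here in mouse gut mesenchyme were Aldh1a1, Aldh1a2, Aldh1a3, Cyp26a1, Cyp26b1, Rarb, Crabp1, Crabp2 and Dhrs3. The genes were chosen by symbol, and all 9 were found among the 43280 genes of the 12 RNA-seq tables. Poly(A) RNA-seq counts and pooled ATAC-seq peak lists came from mesenchymal cells of the E13.5 (midgestation) stomach and intestine, and further RNA-seq counts from adult intestinal mesenchyme. Each RNA-seq group held 2 libraries, and each of the 4 embryonic ATAC-seq peak lists pooled its replicates.

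The embryonic controls had the genotype Bapx1-cre;Rosa26mTmG and the Eed KO embryos Eedfl/fl;Bapx1-cre;Rosa26mTmG. The strain label is C57BL/6, while the study's reporting summary gives mixed backgrounds for the reporter, the Eedfl and the adult Pdgfrb Cre-ERT2 lines. All embryonic groups therefore carried the Bapx1-cre allele and the Rosa26mTmG reporter, and the cells were sorted for GFP, so a library holds cells with a history of Bapx1 (Nkx3-2) expression and their descendants. Eed is a core subunit of Polycomb repressive complex 2 (PRC2), which deposits the repressive histone mark H3K27me3. The adult groups are labelled WT and EED-KO. By the study's methods, both were GFP-sorted small intestinal cells of tamoxifen-treated Pdgfrb Cre-ERT2 mice with the same reporter, and Eed was floxed in the EED-KO group. The study calls the libraries of a group biological replicates, but the labels do not say which came from separate litters, so the p-values measure only the spread between these libraries.

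Retinoic acid is made from vitamin A by oxidation of retinol to retinal and then of retinal to the acid, the latter by the Aldh1a enzymes. Dhrs3 reduces retinal back to retinol, the Crabp proteins bind retinoic acid in the cytoplasm, and the Cyp26 enzymes degrade it. The acid acts through heterodimers of the RAR and RXR nuclear receptors on direct repeats of a short core motif, and Rarb and Cyp26a1 are textbook targets of those receptors. In the embryonic gut, retinoic acid from the mesoderm is known to take part in the patterning of the organs along the anterior-posterior axis.

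The promoters are shown first because the chromatin data bear on them. Each sequence covers 250 bases before and 50 after the RefSeq transcription start (GRCm38.p6, the assembly of the deposited files), 5′ to 3′ along the gene. Entries were matched for 7 of the 9 genes, with Aldh1a3 and Crabp2 unmatched. Capitals mark the core motifs of a direct repeat. A core was AGGTCA or its variant AGTTCA or variant GGGTCA or variant GGTTCA, and a repeat was a pair of cores in the same orientation with 1, 2 or 5 bases (N) between them, searched on both strands. Rarb and Cyp26a1 are shown as the members whose windows hold such a repeat, and Aldh1a1 and Crabp1 as the members with the largest organ difference in either direction among those whose windows hold none. For Aldh1a1, RefSeq also has a start further upstream, whose window holds none either.
Rarb, chr14:16575427-16575726, minus strand: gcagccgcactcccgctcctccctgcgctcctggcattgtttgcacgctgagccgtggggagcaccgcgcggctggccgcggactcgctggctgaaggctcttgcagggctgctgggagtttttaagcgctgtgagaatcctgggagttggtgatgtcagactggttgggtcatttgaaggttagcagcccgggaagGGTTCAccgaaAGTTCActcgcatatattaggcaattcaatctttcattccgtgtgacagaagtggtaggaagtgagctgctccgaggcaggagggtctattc
Cyp26a1, chr19:37697558-37697857, plus strand: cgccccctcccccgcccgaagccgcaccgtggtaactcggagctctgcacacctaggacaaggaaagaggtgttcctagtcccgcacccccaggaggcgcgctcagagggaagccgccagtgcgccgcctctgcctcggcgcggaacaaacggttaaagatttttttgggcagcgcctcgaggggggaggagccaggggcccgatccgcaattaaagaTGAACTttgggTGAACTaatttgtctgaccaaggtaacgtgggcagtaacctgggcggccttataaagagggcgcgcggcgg
Aldh1a1, chr19:20601718-20602017, plus strand: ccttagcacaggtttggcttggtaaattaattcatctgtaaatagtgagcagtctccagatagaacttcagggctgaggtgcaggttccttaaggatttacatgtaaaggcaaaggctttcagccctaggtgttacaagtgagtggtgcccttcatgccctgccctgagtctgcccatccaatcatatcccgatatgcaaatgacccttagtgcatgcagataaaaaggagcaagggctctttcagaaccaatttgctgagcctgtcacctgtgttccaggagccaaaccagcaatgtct
Crabp1, chr9:54764498-54764797, plus strand: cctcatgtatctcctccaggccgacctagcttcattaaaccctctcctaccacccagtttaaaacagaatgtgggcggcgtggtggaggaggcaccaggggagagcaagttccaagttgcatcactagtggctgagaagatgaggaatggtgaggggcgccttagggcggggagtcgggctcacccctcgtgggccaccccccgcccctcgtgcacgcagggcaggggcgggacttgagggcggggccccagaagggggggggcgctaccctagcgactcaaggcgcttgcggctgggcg

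Read along the repeat, the 2 sites compare as follows, with capitals again marking the cores.
Rarb: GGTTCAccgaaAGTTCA
Cyp26a1: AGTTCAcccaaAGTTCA

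Both were repeats with 5 bases between the cores, and the latter core was the same in both. The Rarb site covers bases 53 to 37 before its start (chr14:16575513-16575529). The Cyp26a1 site lies on the opposite strand and covers bases 32 to 16 before its start (chr19:37697776-37697792). Of 32851 RefSeq promoter windows of the same length, 32 (0.0974%) held a repeat with 5 bases between the cores. Repeats with 1 base between them were in 0.222% and repeats with 2 bases in 0.268%, while 43.7% held at least 1 core. A match of letters is a description of the window, and no match in the other windows says nothing about sites elsewhere.

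In the deposited mm10 gene models the synthesis genes Aldh1a1 (chr19:20601961-20643462) and Aldh1a2 (chr9:71215789-71296243) lie on the plus strand and Aldh1a3 (chr7:66390892-66427517) on the minus strand. Dhrs3 (chr4:144892827-144928209), Crabp1 (chr9:54764748-54773110), Crabp2 (chr3:87948666-87953376) and Cyp26a1 (chr19:37697808-37701528) lie on the plus strand, and Cyp26b1 (chr6:84571414-84593908) and Rarb (chr14:16430842-16575472) on the minus strand.

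The totals per library were 30236159 to 39606157 counts in the embryo and 11404712 to 15903642 in the adult, so that 3 counts correspond to at most 0.0992 CPM (counts scaled to library size) in the embryo and 0.263 in the adult. Library sizes were scaled by the trimmed mean of M values, so a level is relative to the other genes of its library. Eed itself was 38.1 to 41.5 CPM in the 4 embryonic controls and 7.40 to 11.5 in the 4 Eed KO libraries, with a called decrease in intestine (log2 fold change -2.02, adjusted p = 0.00464) and stomach (-2.11, adjusted p = 0.00175). In the adult it was 29.7 and 33.4 CPM in the controls and 25.7 and 25.0 in the libraries labelled EED-KO, a log2 fold change of -0.32 (SE 0.21, adjusted p = 0.317), so the adult groups are called by their labels. The study separately reports the efficiency of Eed deletion in isolated pericryptal cells, which was not re-examined here. A gene was called at an adjusted p under 0.05 (edgeR quasi-likelihood test) with a log2 fold change above 1 in size, or under 0.2 for the organ difference of the Eed KO effect.

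The synthesis genes differed between the control organs at 1 enzyme, Aldh1a1. Aldh1a1, a retinal dehydrogenase, stood at 555 and 357 CPM in control intestine and 11.8 and 14.6 in control stomach. The intestinal level was 34.6-fold higher (log2 fold change 5.11, SE 0.34, adjusted p = 0.000319). Aldh1a2, the main retinal dehydrogenase of the early embryo, was high in both organs, at 509 and 474 CPM in intestine and 350 and 354 in stomach. Its groups did not overlap, and the difference passed the adjusted p but not the fold threshold (log2 fold change 0.48, SE 0.10, adjusted p = 0.0249). Aldh1a3 was low, at 3.17 and 4.00 CPM in intestine and 2.67 and 6.2 in stomach, with overlapping groups. Per transcript length, Aldh1a1 supplied 54.5% and 45.3% of the summed TPM of the 3 enzymes in the control intestine libraries and 3.57% and 4.30% in the control stomach libraries. Aldh1a2 supplied 96.1% and 94.9% in the latter, so a single enzyme made up most of the stomach total and a pair made up the intestinal one. The summed level of the 3 enzymes was 1462 and 1169 TPM in control intestine and 489 and 499.7 TPM in control stomach.

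Of the 5 members that bind, degrade or respond to retinoic acid, 4 were higher in control stomach than in control intestine, namely Cyp26a1, Crabp1, Crabp2 and Rarb, and Cyp26b1 was not called. Cyp26a1, the inducible retinoic acid hydroxylase, was 15.9 and 16.9 CPM in stomach and 0.730 and 0.875 in intestine, 20.4-fold higher in stomach (log2 fold change -4.35 for intestine over stomach, SE 0.26, adjusted p = 0.000256). Crabp1, a cytoplasmic binding protein, was 101 and 96.6 CPM in stomach and 15.6 and 9.52 in intestine, a 7.84-fold difference (log2 fold change -2.97, SE 0.21, adjusted p = 0.000466). In both genes the stomach libraries lay close together and far above the intestinal ones. Rarb, the receptor whose promoter holds the repeat shown above, was 125 and 119 CPM in stomach and 43.9 and 45.9 in intestine (log2 fold change -1.44, SE 0.11, adjusted p = 0.000592). Crabp2, which hands retinoic acid to the receptors, was 43.7 and 26.3 CPM in stomach and 12.8 and 9.02 in intestine (log2 fold change -1.68, SE 0.30, adjusted p = 0.0177). The Crabp2 libraries of a group differed more among themselves, and its call was lost without control intestine replicate 1 (adjusted p = 0.0721), control intestine replicate 2 (0.122) or control stomach replicate 1 (0.0846).

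Dhrs3, the retinal reductase, was 46.6 and 45.5 CPM in control stomach and 25.1 and 31.2 in control intestine. Its groups did not overlap, and the difference passed the adjusted p but not the fold threshold (log2 fold change -0.71, SE 0.14, adjusted p = 0.0269). Cyp26b1, the other degrading enzyme measured here, was 17.9 and 13.6 CPM in intestine and 17.7 and 11.9 in stomach, with overlapping groups. Of the degrading enzymes, Cyp26a1 was called in this comparison and Cyp26b1 was not, a difference between genes that was not itself tested.

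Of the 9 members, 1 was higher and 4 were lower in control intestine, where 1.68% of the 16218 genes tested were called higher and 3.39% lower. Their median log2 fold change was -0.71, against 0.00 for all genes tested. When the libraries were scaled by their spike-in RNA instead, the median log2 fold change over all genes was 0.30 in this comparison and the 5 called members kept their direction, but Crabp1, Crabp2 and Rarb lost their calls (adjusted p = 0.129, 0.985 and 0.985). The endothelial markers Pecam1, Cdh5 and Emcn (3 of 5), the smooth muscle marker Des (1 of 5) and the antigen-presentation gene H2-Ab1 were called higher in control intestine. Called higher in control stomach were the epithelial markers Epcam and Cldn6 (2 of 7), the mesothelial marker Wt1 (1 of 6), the enteric neural crest marker Erbb3 (1 of 7), the mesenchymal marker Twist1 (1 of 9) and the splenic marker Nkx2-5. The epithelial markers summed to 66.4 to 106 CPM in control intestine and 108 to 116 in control stomach, and the splenic mesenchyme markers Tlx1 and Nkx2-5 summed to 0.478 to 1.18 CPM in control intestine and 6.76 to 33.7 in control stomach. The 5 endothelial markers summed to 11.6 to 15.1 CPM in control intestine and 11.4 to 13.1 in control stomach, with overlap. The part of these cell types in the organ differences was not tested. In bulk RNA from sorted cells, fewer cells of a type and less RNA per cell cannot be told apart.

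**Figure D1:**
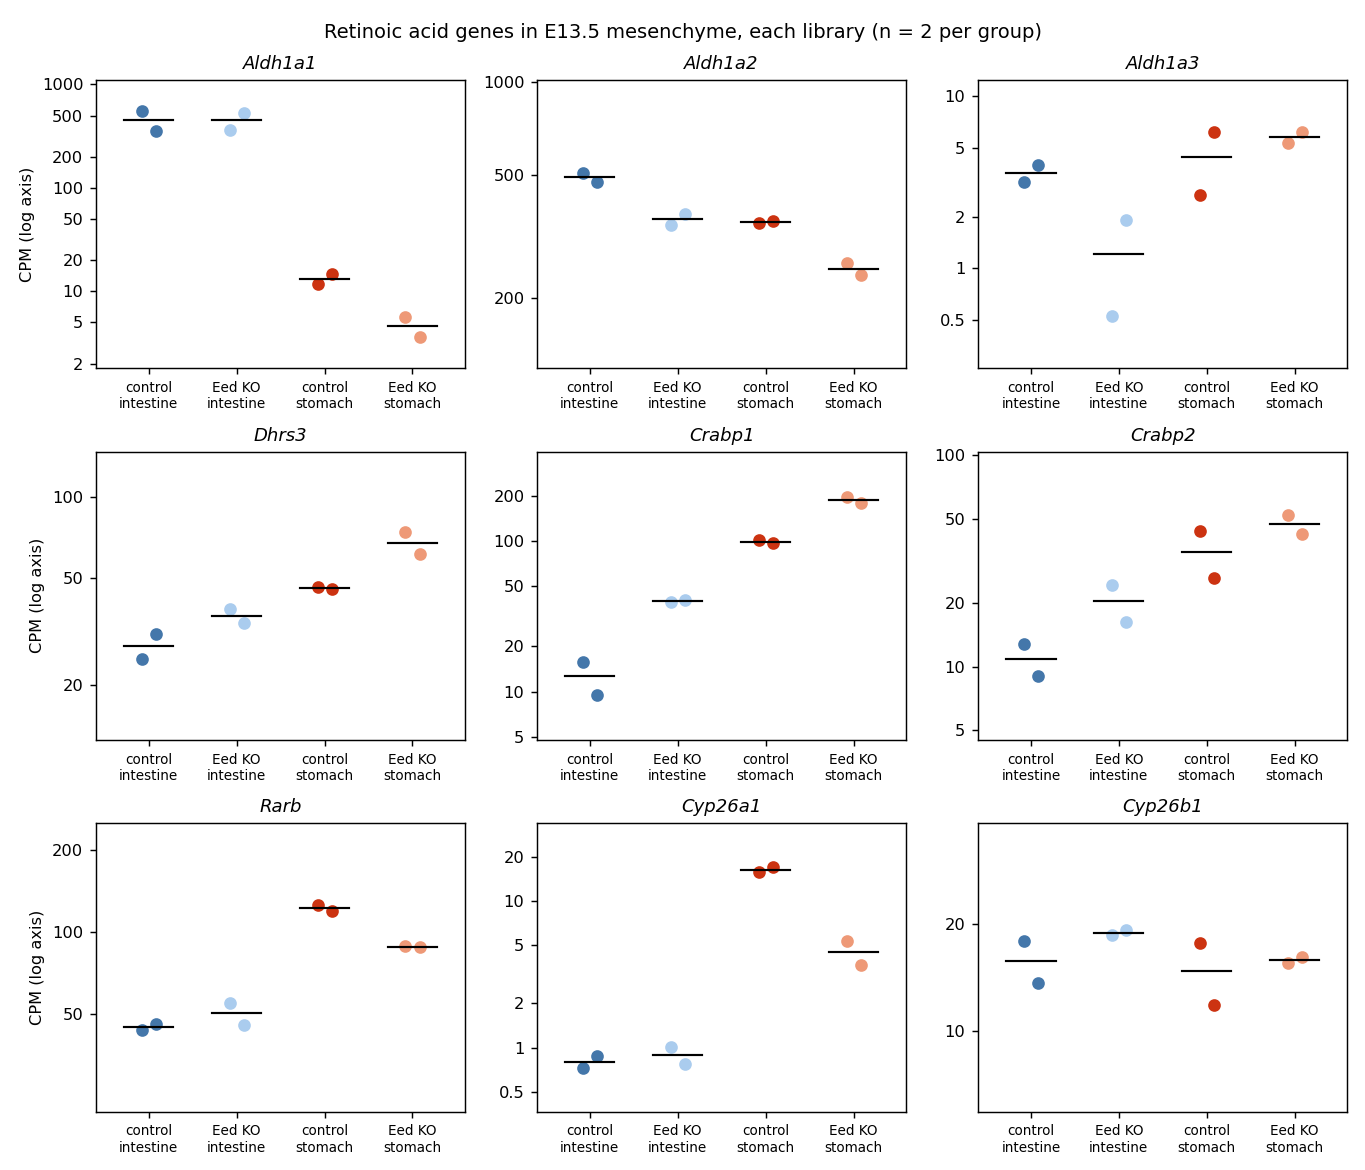
CPM (log axis) of the 9 genes in each of the 8 embryonic libraries, with points for libraries and a bar for the group mean. Aldh1a1 lies at 357 to 555 CPM in the 4 intestinal libraries and at 3.62 to 14.6 in the 4 stomach libraries, while Cyp26a1 is highest in control stomach (15.9 and 16.9) and lower in Eed KO stomach (5.34 and 3.65) on this scale, a direction that turns when libraries are scaled by spike-in RNA.

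In the intestine 1 member rose with loss of Eed, Crabp1. It was 39.3 and 40.5 CPM in the Eed KO libraries against 15.6 and 9.52 in the controls, 3.16-fold higher (log2 fold change 1.66, SE 0.21, adjusted p = 0.00939), and stayed called without any 1 of the 4 libraries. Crabp2 was 24.4 and 16.3 CPM against 12.8 and 9.02, without overlap, but missed both thresholds (log2 fold change 0.90, SE 0.30, adjusted p = 0.208). Aldh1a1 overlapped between the genotypes, at 363 and 535 CPM against 555 and 357 (log2 fold change -0.02, SE 0.28). Aldh1a2 was 345 and 376 CPM in Eed KO and 509 and 474 in control, without overlap and just short of the adjusted p threshold (log2 fold change -0.45, SE 0.10, adjusted p = 0.0544). Cyp26a1 remained near 1 CPM in this organ, at 1.00 and 0.770 in Eed KO and 0.730 and 0.875 in control. Aldh1a3 (0.528 and 1.91 CPM against 3.17 and 4.00) did not pass either, although DESeq2 with a spike-in factor called it lower (adjusted p = 0.00307). The log2 fold changes of Rarb, Dhrs3 and Cyp26b1 were 0.17, 0.37 and 0.26, with none past the test.

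In this comparison 1 of 9 members was called higher and 0 lower, where 2.38% and 0.228% of all genes tested were called. Under spike-in scaling the log2 fold changes of Eed KO over control centred on 1.85 in intestine and 2.39 in stomach, so that changes under Eed loss are given relative to the other genes. The spike-in counts were 14932 and 5501 in Eed KO intestine and 12108 and 4871 in Eed KO stomach. In the controls they were 26227 and 26837 in intestine and 37590 and 36020 in stomach. The spike-in scale itself thus varied between Eed KO replicates, so calls under it are not read here as an absolute rise. Endothelial markers stood at 11.6 to 15.1 summed CPM in control and 42.7 to 44.5 in Eed KO intestine, with 2 of 5 called higher and none at 0, and their part in the Crabp1 difference was not tested. Of the genes called with Eed loss, 91.3% in the intestine and 85.7% in the stomach were higher, and 65.3% and 54.0% were higher when DESeq2 was run with 1 spike-in factor.

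In the stomach 2 members fell with loss of Eed relative to the other genes, Cyp26a1 and Aldh1a1, although both turned positive under spike-in scaling. Cyp26a1 was 5.34 and 3.65 CPM in Eed KO against 15.9 and 16.9 in control, 3.65-fold lower (log2 fold change -1.87, SE 0.22, adjusted p = 0.00353). Its call held without any 1 of the 4 libraries and was lost with DESeq2 and 1 spike-in factor (adjusted p = 0.150). With spike-in scaling its log2 fold change was 0.40, which is -1.99 relative to the median of all genes under that scaling. Aldh1a1 was 5.66 and 3.62 CPM in Eed KO against 11.8 and 14.6 in control (log2 fold change -1.50, SE 0.31, adjusted p = 0.0291). The groups did not overlap, but the call was lost without Eed KO stomach replicate 2 (adjusted p = 0.161), control stomach replicate 1 (0.0881) or control stomach replicate 2 (0.151), and spike-in scaling turned its direction (0.74, or -1.65 relative to all genes).

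Other members differed without overlap by less than the fold threshold. Crabp1 was 198 and 180 CPM in Eed KO stomach against 101 and 96.6 in control (log2 fold change 0.93, SE 0.20, adjusted p = 0.0296). Rarb was 88.5 and 87.9 CPM against 125 and 119 (log2 fold change -0.47, SE 0.11, adjusted p = 0.0431), and Aldh1a2 259 and 237 CPM against 350 and 354 (log2 fold change -0.50, SE 0.10, adjusted p = 0.0213). Rarb and Aldh1a2 also changed sign under spike-in scaling, to 1.93 and 1.87. Dhrs3 was 74.1 and 61.7 CPM against 46.6 and 45.5 and did not reach the adjusted p threshold (0.0583). Cyp26b1, Crabp2 and Aldh1a3 had log2 fold changes of 0.10, 0.44 and 0.38 with adjusted p-values from 0.425 to 0.810. By the main scaling, Cyp26a1 and Aldh1a1 were thus called lower, while Rarb and Aldh1a2 were lower by less than the fold threshold. Any part of the repeats in these values was not tested.

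Of the 9 members, 0 were called higher and 2 lower in Eed KO stomach, where 4.84% and 0.808% of all genes tested were called. Their median log2 fold change was 0.10, against 0.00 for all genes. The mesothelial markers Upk3b, Upk1b, Msln, Lrrn4, Wt1 and Muc16, which label the outer lining of the gut, summed to 541 to 564 CPM in control stomach and 336 to 438 in Eed KO stomach, with 0 of 6 called and none at 0. The 5 endothelial markers summed to 11.4 to 13.1 CPM in control and 21.9 to 39.4 in Eed KO stomach, with 4 of 5 called higher. The 9 mesenchymal markers summed to 12783 to 15767 and 13055 to 19303 CPM, with 0 of 9 called, and the smooth muscle markers to 2589 to 2680 and 1615 to 1854. The part of mesothelial, endothelial or muscle cells in the lower Aldh1a1 and Cyp26a1 was not tested.

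The Eed KO effect differed between the organs for 1 member, Cyp26a1, at the threshold of 0.2. Its effect was 2.02 higher on the log2 scale in the intestine than in the stomach (SE 0.36, adjusted p = 0.140), with the 4 intestinal libraries at 0.730 to 1.00 CPM. Without 1 library at a time the adjusted p ran from 0.151 to 0.459 and the difference was called in 2 of 8 such fits, those without Eed KO intestine replicate 2 or Eed KO stomach replicate 1. Over all genes 0.191% were called higher and 0.271% lower for this difference. The Crabp1 effects, 1.66 in the intestine and 0.93 in the stomach, differed by 0.73 (SE 0.28, adjusted p = 0.770), and the Aldh1a1 effects by 1.48 (SE 0.42, adjusted p = 0.505), neither past the test. With a replicate block within genotype, Aldh1a1 (1.49, adjusted p = 0.140) and Aldh1a3 (-2.13, adjusted p = 0.109) were called as well, and the same-numbered Eed KO libraries of the organs deviated together (correlation 0.748). The Crabp1 difference was called without control intestine replicate 1 (1.13, adjusted p = 0.179), and the Aldh1a1 difference with DESeq2 (adjusted p = 0.0313) or without the count filter (0.0168).

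Without Eed the organ differences of Aldh1a1, Crabp1 and Cyp26a1 were called again. Aldh1a1 was 96.6-fold higher in Eed KO intestine than in Eed KO stomach (log2 fold change 6.59, SE 0.37, adjusted p = 0.000421). Crabp1 was 4.74-fold lower (log2 fold change -2.24, SE 0.20, adjusted p = 0.00165) and Cyp26a1 5.04-fold lower (log2 fold change -2.33, SE 0.25, adjusted p = 0.00289) in Eed KO intestine. In Cyp26a1 the Eed KO stomach libraries lay between the control stomach and the intestinal ones on the main scaling. Under spike-in scaling they lay above control stomach (log2 fold change 0.40). Rarb (log2 fold change -0.81) and Dhrs3 (-0.90) passed the adjusted p but not the fold threshold, and Crabp2 (-1.22, adjusted p = 0.0574) and Aldh1a3 (-2.26, adjusted p = 0.0673) the reverse. Thus 1 member was higher and 2 lower, where 1.46% and 2.94% of all genes were called. With DESeq2 the number called lower was 4, Crabp2 and Aldh1a3 being added, and the same was so with a replicate block (adjusted p = 0.000982 and 0.00847). Without Eed KO intestine replicate 2 Aldh1a3 was called (adjusted p = 0.0265), and without Eed KO stomach replicate 2 Dhrs3 was (log2 fold change -1.02). This comparison shares its libraries with the Eed KO comparisons above, so its values are given beside theirs and not as separate support.

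**Figure D2:**
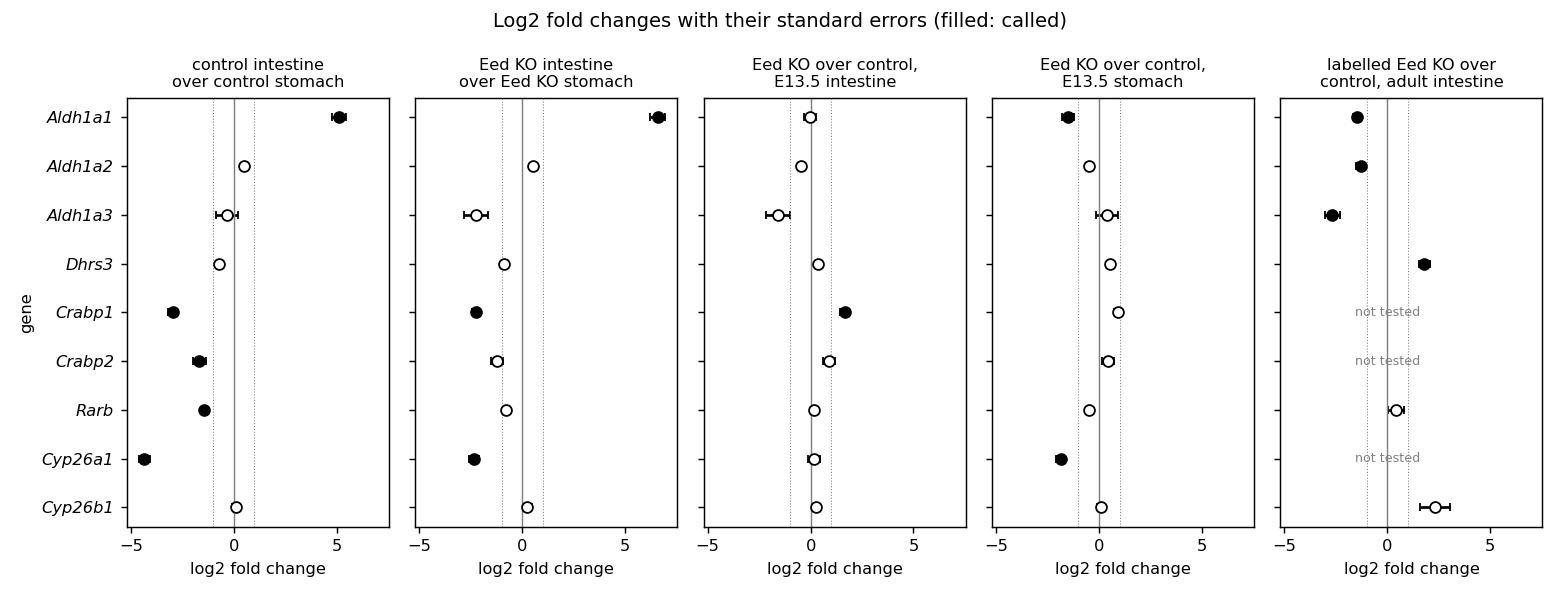
Log2 fold change of each gene (points) with its standard error (bars) in the 4 embryonic comparisons and the adult one, filled where called and with dotted lines at a log2 fold change of 1 in either direction. The organ panels range from -4.35 to 6.59, and the Eed KO panels from -2.67 (Aldh1a3, adult) to 2.31 (Cyp26b1, adult, not called), while the lower values of Cyp26a1, Aldh1a1, Rarb and Aldh1a2 in Eed KO stomach and of the 3 Aldh1a genes in Eed KO intestine turn positive under spike-in scaling.

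Ordered by group mean on the main scaling, Crabp1, Crabp2 and Dhrs3 ran from control intestine through Eed KO intestine and control stomach to Eed KO stomach. Under spike-in scaling the middle groups change places, since the log2 fold change of Eed KO over control intestine was then 3.49 for Crabp1, 2.60 for Crabp2 and 2.20 for Dhrs3, and that of control intestine over control stomach -2.64, -1.33 and -0.43. The means of Crabp1 were 12.6 ± 4.33, 39.9 ± 0.827, 99.0 ± 3.42 and 189 ± 12.2 CPM (SD, n = 2 each), with no overlap between neighbours. Those of Dhrs3 were 28.1 ± 4.31, 36.3 ± 3.05, 46.1 ± 0.759 and 67.9 ± 8.76 CPM, and those of Crabp2 10.9 ± 2.66, 20.4 ± 5.70, 35.0 ± 12.3 and 47.3 ± 6.64 CPM. In Crabp2, control and Eed KO stomach overlapped at 43.7 and 42.6 CPM. Rarb ran 44.9 ± 1.44, 50.4 ± 6.66, 88.2 ± 0.444 and 122 ± 4.28 CPM over control intestine, Eed KO intestine, Eed KO stomach and control stomach, the first pair overlapping. The Rarb order changes under spike-in scaling, where Eed KO stomach was above control stomach (log2 fold change 1.93). Cyp26b1 had means from 14.8 to 18.9 CPM, and Eed KO intestine was the group that overlapped no other.

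Over the 8 embryonic libraries, the genes whose log2 CPM followed Aldh1a1 most closely were Foxf2 (Pearson r = 0.994), a forkhead factor of gut mesenchyme, Bmp5 (0.994), a BMP ligand, and Aldh1a7 (0.993). Aldh1a7 is a close paralog of Aldh1a1 on the same chromosome (chr19:20692953-20727562 against chr19:20601961-20643462), at 47.4 and 91.6 CPM in control intestine, so reads shared between the paralogs leave the split between them uncertain. The genes most like Cyp26a1 were 1190002N15Rik (0.993), Klhl4 (0.992) and Kcne1l (0.990). Those most like Crabp1 were Apln (0.995), Lhx9 (0.992) and Slc7a3 (0.991). Apln encodes a peptide ligand and Lhx9 a LIM homeobox factor. These are descriptions over 8 libraries that share 4 groups, among 13386 genes with a mean of at least 1 CPM. The correlation does not compare the sizes of changes. Mean CPM in control intestine and control stomach was 456 and 13.2 for Aldh1a1, 143 and 78.3 for Foxf2, and 69.5 and 4.20 for Aldh1a7. From control intestine to Eed KO stomach, Crabp1 went from 12.6 to 189 CPM, Apln from 4.88 to 9.03 and Lhx9 from 0.0281 to 50.3.

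An ATAC-seq peak lay within 1000 bp of the transcription start of 8 of the 9 members in each of the 4 lists, where 88.0% (control intestine), 89.1% (Eed KO intestine), 88.4% (control stomach) and 89.1% (Eed KO stomach) of 16191 tested genes had one. A promoter peak was present at low and at high RNA levels, since Cyp26a1 had one in control intestine, with 3.43-fold enrichment at 0.730 and 0.875 CPM, as in control stomach, with 3.25-fold enrichment at 15.9 and 16.9 CPM. Aldh1a1 had 3.56-fold enrichment in control intestine and 3.02-fold in control stomach. The peak lists carry no replicate, so differences between their values have no test.

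Cyp26b1 was the exception, with its nearest peak 2488, 3326, 2486 and 3341 bp downstream of the start, inside the gene, in control intestine, Eed KO intestine, control stomach and Eed KO stomach. With a window of 5000 bp it too had a peak in all 4 lists. The gene was transcribed at 11.9 to 19.2 CPM in these libraries.

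Rarb had the most enriched promoter peak of the members, 6.98-fold in control intestine, 6.51 in Eed KO intestine, 7.28 in control stomach and 6.68 in Eed KO stomach, and the repeat lay inside it in every list. The median over all promoters with a peak was 6.46 to 6.91 in the 4 lists, and Rarb lay above the median of its list except in Eed KO stomach, while the other members with a promoter peak lay below it. The Cyp26a1 repeat lay inside a peak in control intestine, control stomach and Eed KO stomach. In Eed KO intestine the Cyp26a1 peak began 56 bp after the start (chr19:37697864-37699258) and left the repeat outside.

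The Aldh1a1 peak spanned 3015 bp in control intestine and 1806 bp in control stomach, and 345 and 334 bp in the corresponding Eed KO lists. Its enrichment was 4.08 in Eed KO intestine and 2.60 in Eed KO stomach, where the -log10 q was 1.63. With a minimum of 2 for that value, 7 members had a promoter peak in Eed KO stomach. The Aldh1a1 value was also low in control stomach, at 2.48. With a minimum of 5, each stomach list had 7 members with a promoter peak. Aldh1a3 had 4.59-fold enrichment in Eed KO and 6.19 in control intestine, a ratio of 0.741, and 4.30 against 5.60 in stomach, a ratio of 0.769. Over all genes with a peak in both lists, 90% of the ratios lay between 0.767 and 1.15 in the intestine and between 0.817 and 1.2 in the stomach. The Aldh1a3 ratio was below that range in both. Its peak spanned 925 bp in control and 1902 bp in Eed KO intestine, and 1333 and 1532 bp in the corresponding stomach lists. The ratios thus compare regions of unlike length, as for Aldh1a1, and a change in accessibility was not tested. Its RNA was lower in CPM in Eed KO intestine and overlapped in the stomach, with neither difference past the test.

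**Figure D3:**
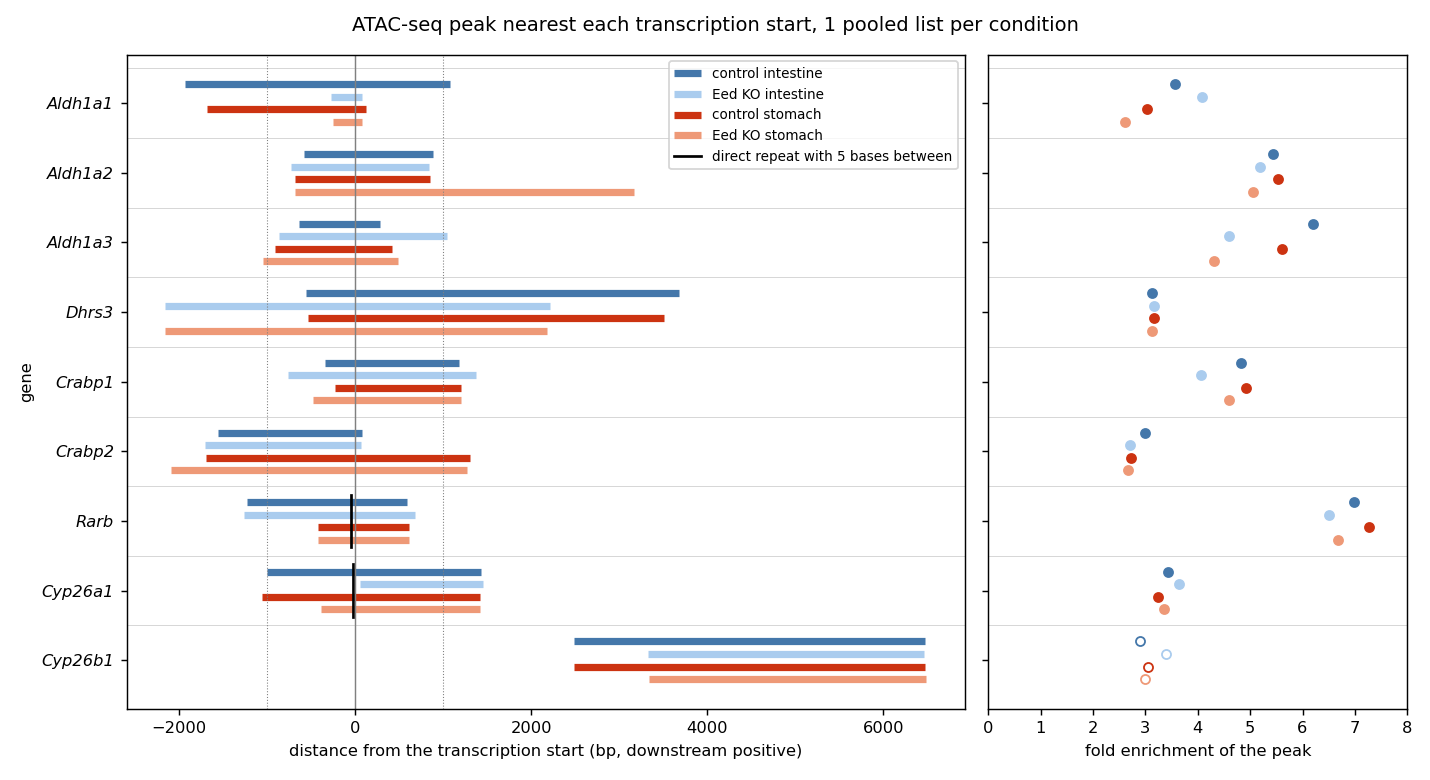
Left, extent of the ATAC-seq peak nearest each transcription start (horizontal axis, bp from the start, downstream positive; dotted lines at 1000 bp) in the 4 pooled lists, with a black tick at the direct repeat of Rarb and Cyp26a1; right, fold enrichment of that peak, open where it lies beyond 1000 bp. The Rarb peaks reach 6.51 to 7.28, the Cyp26b1 peaks start 2486 to 3341 bp downstream, and the Aldh1a1 peaks of the Eed KO lists are 345 and 334 bp long.

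In the adult intestine the 3 synthesis enzymes fell together in the libraries labelled EED-KO, and the reductase Dhrs3 rose. Aldh1a1 was 126 and 136 CPM against 384 and 340 in control (log2 fold change -1.46, SE 0.19, adjusted p = 0.00239). Aldh1a2 was 77.3 and 58.4 CPM against 175 and 157 (log2 fold change -1.29, SE 0.22, adjusted p = 0.00616). Aldh1a3 was 79.1 and 50.3 CPM against 531 and 292, 6.36-fold lower (log2 fold change -2.67, SE 0.36, adjusted p = 0.00274). Dhrs3 was 573 and 842 CPM against 170 and 235, 3.50-fold higher (log2 fold change 1.81, SE 0.27, adjusted p = 0.00418). In all 4 genes the groups were clear of each other, as they also were in Cyp26b1, which was not called. With 2 against 2 libraries this separation is given as a description. The calls held without any 1 library and, for the 3 enzymes, under spike-in scaling, where the Dhrs3 call was lost (log2 fold change 1.30, adjusted p = 0.122).

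Rarb overlapped between the adult groups, at 9.23 and 17.8 CPM against 9.66 and 10.6. Cyp26b1 was 1.61 and 4.10 CPM against 0.512 and 0.631, clear of the controls but short of the adjusted p threshold (log2 fold change 2.31, SE 0.72, adjusted p = 0.0592), which it passed without replicate 1 of those labelled EED-KO (0.0455). Cyp26a1, Crabp1 and Crabp2 were not tested in the adult. Crabp1 had 1 count in the 4 adult libraries, Crabp2 had 2 counts in the controls and 5 in the libraries labelled EED-KO, and Cyp26a1 had 7 and 13. Of the 6 members tested, 1 was called higher and 3 lower, where 12.3% and 7.23% of 15039 genes were called.

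The cell makeup of the adult libraries differed at the same time. All 7 macrophage and leukocyte markers found in the table were called higher, their sum going from 615 to 878 CPM in control to 16309 to 18052 in the libraries labelled EED-KO, with none at 0. The antigen-presenting and B cell markers summed to 3073 to 4299 and 113297 to 134421 CPM. Of these 6 markers, 3 were called higher, 1 was called lower and 2 were not called. The mesenchymal markers summed to 8912 to 9204 CPM in control and 2635 to 3738 in the libraries labelled EED-KO, with 4 of 7 tested called lower, among them Pdgfra (log2 fold change -1.79, SE 0.22), a receptor of fibroblasts. The smooth muscle markers summed to 1559 to 1877 and 2728 to 3207 CPM, with 3 of 5 called higher, and 1 endothelial and 1 enteric neural marker were called higher, each of 5 tested. Over the 7 tested mesenchymal markers the median log2 fold change was -1.60, with 3 not called. The part of these cell types in the changes of the 4 members was not tested.

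**Figure D4:**
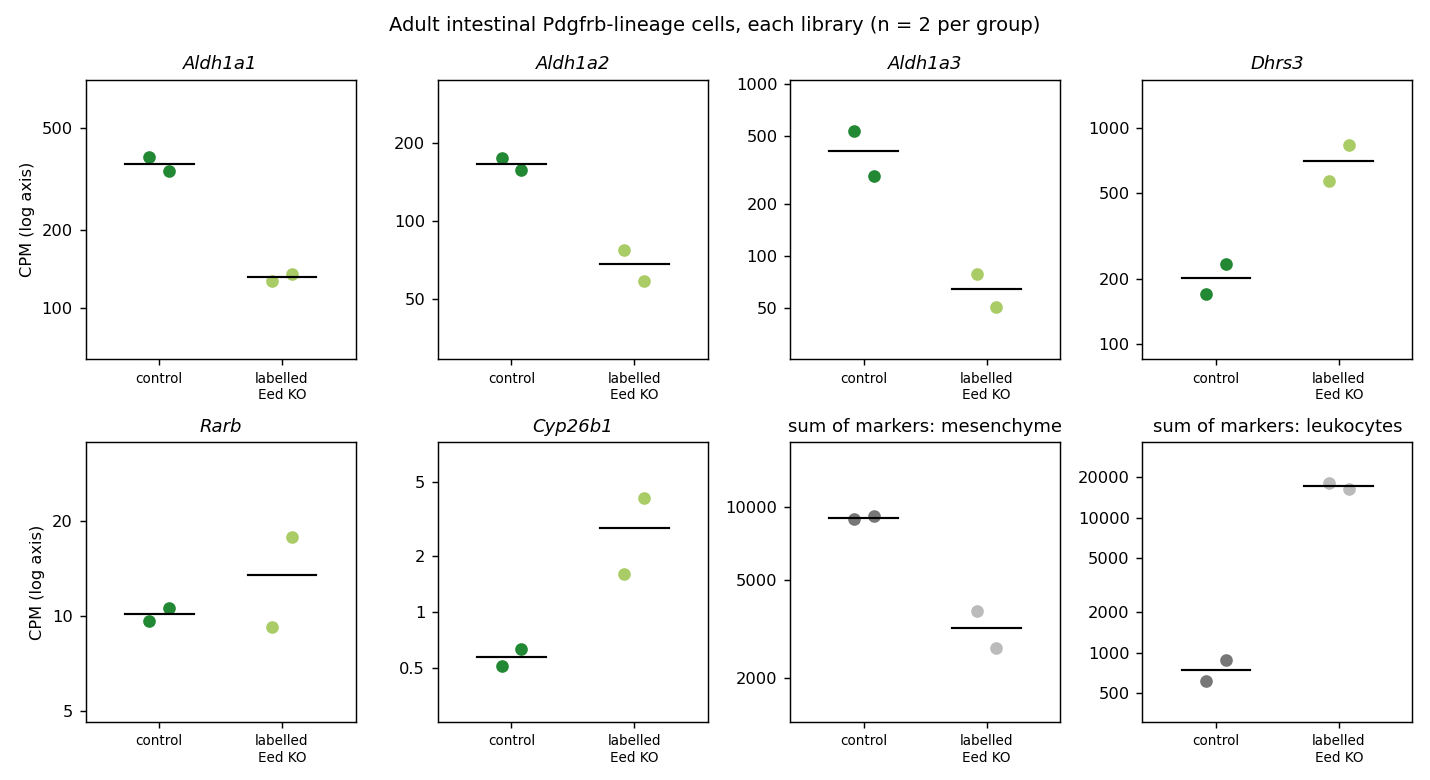
CPM (log axis) of the 6 members tested in each adult library, beside the summed mesenchymal and the summed macrophage and leukocyte markers, with points for libraries and a bar for each group mean. Aldh1a1, Aldh1a2, Aldh1a3 and the mesenchymal sum are lower, and Dhrs3 and the leukocyte sum higher, in both libraries labelled EED-KO.

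Set side by side with no test, since age, Cre driver and library kit differ together, control intestine had a different set of these genes in the embryo and in the adult. Aldh1a1 was 663 ± 189 TPM in the embryo and 452 ± 47.5 in the adult (SD, n = 2 each), and Aldh1a2 650 ± 18.8 and 188 ± 18.2. Aldh1a3 was 2.33 ± 0.433 TPM in the embryo and 230 ± 98.8 in the adult, where it supplied 30.3% and 21.2% of the summed enzyme TPM. Dhrs3 was 28.8 ± 5.05 and 177 ± 36.9 TPM. Rarb was 44.3 ± 2.41 and 8.55 ± 0.378 TPM, Crabp1 46.8 ± 15.1 TPM in the embryo and without counts in either adult control, and Crabp2 24.6 ± 5.48 and 0.134 ± 0.190 TPM.

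A wider list of 54 other retinoid genes covered uptake, oxidation, degradation, receptors, coregulators and responsive genes. In the control organs 40 were tested, 2 were higher and 3 lower in intestine, and their median log2 fold change was 0.03, where 1.68% and 3.39% of all genes were called. None of the 8 tested genes known to respond to retinoic acid was among them. Rdh10, the retinol dehydrogenase that feeds the Aldh1a enzymes, was 341 and 290 CPM in intestine and 140 and 148 in stomach (log2 fold change 1.13, SE 0.11, adjusted p = 0.00151). Dhrs7, a related reductase, was higher as well (1.07), while Rxrg (-2.92), Rarg (-1.01) and the retinoic acid oxidizing enzyme Cyp2s1 (-1.18) were lower. Rdh10 thus lay on the same side as Aldh1a1, and the receptors Rxrg and Rarg on that of Rarb. The calls of Rarg, Dhrs7 and Cyp2s1 were each lost in at least 2 of 4 fits without 1 library: that of Rarg without control intestine replicate 2 (log2 fold change -0.99) or control stomach replicate 2 (-0.90), that of Dhrs7 without control intestine replicate 1 (1.04, adjusted p = 0.0714) or control stomach replicate 2 (0.95), and that of Cyp2s1 without either control intestine replicate or control stomach replicate 2 (adjusted p = 0.119 to 0.153). All 5 missed the threshold under spike-in scaling, with the same direction. Rara, Rxra, Rxrb and Ppard, the other receptors, had log2 fold changes of -0.11, -0.09, -0.16 and 0.35, and the uptake receptor Stra6 0.15, none past the test.

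With loss of Eed, 0 of the 40 were called in the intestine, where 2.38% of all genes were called higher and 0.228% lower. Rarg there was 33.9 and 37.7 CPM against 20.1 and 19.5 in control, past the adjusted p but not the fold threshold (log2 fold change 0.85, SE 0.12, adjusted p = 0.0125). Rxrg in the intestine passed the fold but not the adjusted p threshold (log2 fold change 1.85, SE 0.40, adjusted p = 0.058). The log2 fold changes of Rara, Rxra, Rxrb and Ppard were 0.16, 0.05, -0.0087 and -0.13, none past the test. In the stomach 1 was higher and 2 were lower, where 4.84% and 0.808% of all genes were called. Lrat, which stores retinol as esters, was 0.0805 and 0.192 CPM in Eed KO against 3.10 and 2.5 in control (log2 fold change -4.33, SE 0.54, adjusted p = 0.00433), and was called under all 11 alternatives. Adh1, an alcohol dehydrogenase, was 2.82 and 3.02 CPM against 1.19 and 0.408 (log2 fold change 1.88, adjusted p = 0.0458), and Hoxb1, a responsive homeobox gene, 0.295 and 0.219 CPM against 1.01 and 1.25 (log2 fold change -2.12, adjusted p = 0.0133, but 0.10 under spike-in scaling). Adh1 was lost without control stomach replicate 2 (adjusted p = 0.131) or either Eed KO stomach replicate (0.113 and 0.174), and Hoxb1 without any 1 of the 4 libraries (0.0524 to 0.108). Between the Eed KO organs, Lrat (4.38) and the carotene oxygenase Bco1 (1.83) were higher and Adh1 (-2.06) and Cyp2s1 (-1.40) lower in intestine, where 1.46% and 2.94% of all genes were called. Lrat kept its call without any 1 library, Adh1 lost it in all 4 such fits (adjusted p = 0.0893 to 0.158), Bco1 in 3 of 4, without either Eed KO intestine replicate or Eed KO stomach replicate 2 (0.0728 to 0.156), and Cyp2s1 without Eed KO stomach replicate 2 (0.0707).

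In the adult 41 were tested, with 5 higher and 3 lower in the libraries labelled EED-KO, where 12.3% and 7.23% of all genes were called, so these shares lay near the background. Lower were Rdh10 (log2 fold change -2.14, SE 0.25), Lrat (-2.29, SE 0.39) and the responsive transglutaminase Tgm2 (-1.74, SE 0.22). Higher were Stra6l (5.68), a receptor for plasma retinol-binding protein, the enterocyte retinol-binding protein Rbp2 (2.99), the carotene oxygenase Bco2 (4.08), the fatty acid and retinoic acid binding protein Fabp5 (2.72) and the intestinal homeobox gene Cdx1 (4.30). All 8 were called under all 10 alternatives. The 7 epithelial markers summed to 27.8 to 57.0 CPM in control and 57.2 to 57.8 in the libraries labelled EED-KO, with 0 of 6 tested called. Rxra (log2 fold change -0.84), Rara (-0.11), Rarg (-0.54), Rxrb (0.25), Rxrg (1.04) and Ppard (0.30) did not pass, Stra6 was 0.585 and 0.561 CPM in control and 1.81 and 0.850 in the libraries labelled EED-KO, and Cyp26c1, the last of the Cyp26 enzymes, had no counts in the adult.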

How the data were processed

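Gene counts were deposited by the authors as raw counts per gene symbol: reads were trimmed (Trimmomatic 0.32), aligned to GRCm38/mm10 with spike-in sequences (STAR 2.5.1b) and counted on GENCODE vM4 models (featureCounts), stranded for the embryonic and unstranded for the adult libraries. The deposited broadPeak lists give fold enrichment (a ratio) and the −log10 q value, as the authors obtained them with MACS2 2.1.2 from pooled replicates aligned with BWA 0.7.8. The counts of 16218 embryonic and 15039 adult genes that passed filterByExpr were tested with edgeR 4.0.16 (TMM, quasi-likelihood F test, Benjamini-Hochberg over all genes tested) in R 4.3.3, on 4 embryonic or 2 adult group means. An exact permutation of 2 against 2 libraries cannot go below p = 0.333. The test was checked on simulated counts with 4-fold changes: 84.5% of 194 changed genes were called in the intestinal Eed KO comparison and 68.0% of 197 in the adult one, with 9 and 21 unchanged genes called. The share of false calls thus exceeded the adjusted p threshold in both, slightly in the intestine and by more in the adult. TPM used exon lengths of the deposited gene models. Members share no exon with another gene. Starts are those of the gene models for peaks and of RefSeq for sequences, which differ for Rarb, Aldh1a1 and Cyp26b1. Alternatives were DESeq2 1.42.0, with or without 1 RUVg spike-in factor, RLE and spike-in scaling, no count filter, fewer groups, replicate blocks and fits without 1 library. The members and lists were chosen with earlier results of these data known. Named were all members, the wider-list genes called in a comparison, receptors, Rdh10, Stra6 and Cyp26c1, and the 3 genes most like each of the 3 members with the largest embryonic changes. A gene that this rule also covers is not reported here.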

Additional observations from a re-analysis of the deposited data

Results flagged for a closer look

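Cyp26a1 was the member whose Eed KO effect differed between the embryonic organs: 2.02 higher on the log2 scale in the intestine than in the stomach (SE 0.36, adjusted p = 0.140, edgeR quasi-likelihood test of the difference, threshold 0.2). In the stomach both Eed KO libraries (5.34 and 3.65 CPM) lay below both controls (15.9 and 16.9 CPM), and in the intestine the groups overlapped (1.00 and 0.770 against 0.730 and 0.875 CPM). With DESeq2 and 1 spike-in factor the difference was 1.83 (adjusted p = 0.00226), and with spike-in scaling 1.49 (adjusted p = 0.926). No group had 4 or more libraries, so single libraries were not tested as outliers.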

How the results depend on the processing

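Under spike-in scaling, which moves nearly all genes up with Eed loss, these log2 fold changes changed sign: Aldh1a1 (1.91), Aldh1a2 (1.43) and Aldh1a3 (0.59) for Eed KO intestine, Aldh1a1 (0.74), Aldh1a2 (1.87), Cyp26a1 (0.40) and Rarb (1.93) for Eed KO stomach, Aldh1a2 (-0.44), Cyp26b1 (-0.43) and Crabp2 (-0.20) for the difference of effects, and Rarb in the adult (-0.066). With that scaling 7 members were called higher and 0 lower in either organ's Eed KO comparison, and 13688 genes were called in the intestine and 15438 in the stomach, against 423 and 916. Between the control organs it left 1 member lower and 155 genes in all (822 before), between the Eed KO organs 0 lower and 115 (714), for the difference of the Eed KO effects 0 members and 20 genes (75), and in the adult 0 members higher. With DESeq2 and 1 spike-in factor, Aldh1a3 turned to -1.23 in Eed KO stomach, 2 members were higher and 1 lower in Eed KO intestine, 0 were lower in Eed KO stomach, 4 were lower in Eed KO intestine than in Eed KO stomach, and 241 genes differed in the Eed KO effect. DESeq2 alone called 685 genes in Eed KO intestine, 4 members lower between the Eed KO organs, and 2 members and 207 genes for the difference of effects. Without the count filter, 1 member was lower and 800 genes were called in Eed KO intestine, 4 members were lower between the Eed KO organs, 2 members were higher and 237 genes called for the difference of effects, and 2 members were higher in the adult. With the groups compared alone, 244 genes were called in Eed KO intestine and 397 between the Eed KO organs. The cause of these shifts was not tested.

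The labels do not say that libraries of the same number share animals. Their deviations correlated at 0.370 between the control organs, 0.748 between the Eed KO organs, 0.138 to 0.282 for the other embryonic pairs and -0.082 in the adult. With a replicate block, 4 members were lower between the Eed KO organs and 187 genes differed in the Eed KO effect. With a replicate block within genotype, 4 members were lower and 1131 genes called between the Eed KO organs, and 2 members were higher, 1 lower and 350 genes called for the difference of effects. No other count of members changed under either block.

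Without 1 library at a time, the number of genes called ranged from 370 to 500 between the control organs, 74 to 363 in Eed KO intestine, 344 to 650 in Eed KO stomach, 304 to 528 between the Eed KO organs and 27 to 97 for the difference of effects. The members called ranged from 3 to 4 lower between the control organs, 1 to 2 lower in Eed KO stomach, 2 to 3 lower between the Eed KO organs, 0 to 1 higher for the difference of effects and 1 to 2 higher in the adult. Omitting control intestine replicate 1 gave the 74. Uncalled log2 fold changes that crossed 0 in these fits ranged from -0.79 to 0.43 (Aldh1a3) and -0.16 to 0.41 (Cyp26b1) between the control organs, -0.33 to 0.32 (Aldh1a1) and -0.053 to 0.32 (Cyp26a1) in Eed KO intestine, -0.10 to 1.12 (Aldh1a3) and -0.16 to 0.41 (Cyp26b1) in Eed KO stomach, -0.0089 to 0.12 (Aldh1a2) and -0.15 to 0.42 (Cyp26b1) for the difference of effects, and -0.14 to 0.79 for Rarb in the adult. RLE scaling kept the direction and call of all 51 member values.

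Each group had 2 libraries, and the ATAC-seq lists are pooled and carry no error. In the adult, Crabp1 and Crabp2 had at most 3 counts in a library, too few to compare at this depth. Standard errors are the size of the log2 fold change divided by the square root of the F statistic, so they include the fitted spread between libraries. The floors cover counting error only.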
